A study of Mus musculus with 7 samples.

Results

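Respiratory chain subunit genes are the nuclear genes for the protein parts of mitochondrial complexes I to V. They were chosen by name: Nduf with a letter and a number, Sdha to Sdhd, Uqcr, Cox4 to Cox8, and Atp5 genes. The rule took 83 of the 24354 gene symbols in the deposited table, namely 36 of complex I, 4 of complex II, 8 of complex III, 18 of complex IV and 17 of complex V. Complex I takes electrons from NADH, complex II from succinate, and both pass them through ubiquinone to complex III and on through cytochrome c to complex IV, which reduces oxygen. The proton gradient built on the way drives complex V, the ATP synthase. The balance between glycolysis and respiration is known to shift when cells are reprogrammed and when neural stem cells become neurons. A few complex IV genes come as pairs of a common isoform and a form known from heart and skeletal muscle, lung or testis.

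RNA sequencing gave 1 library for each of 7 mouse cell preparations. The 5 induced neural stem cell (iNSC) libraries were a DTA line, pBKSM, pOKSM, and mcBKSM clones 1 and 3, all made from fibroblasts infected with lentivirus or retrovirus and kept in neural stem cell medium. The reference cells were control neural stem cells (cNSC) from the cerebral cortex and mouse embryonic fibroblasts (MEF), and embryonic day 13.5 is given as the age for all 7 preparations, the iNSC lines included. The DTA line had the genotype Oct4-CreER x Rosa26-loxSTOPlox-DTA, in which Cre made in Oct4-expressing cells releases a diphtheria toxin gene after induction, and its strain was given as unknown. The other iNSC lines and MEF shared the strain C57BL/6-Pou5f1 x 129X1/SvJ and the genotype Oct4-CreER x Rosa26-loxSTOPlox-EYFP, while cNSC came from OG2/ROSA26 heterozygous mice, so cell type and strain cannot be told apart in comparisons with cNSC. The prefixes p and mc were read as polycistronic (several factors on 1 transcript) and monocistronic vectors, and the vector of the DTA line is not given in the labels. Each library was made from RNA pooled from 2 to 3 biological replicates, so p-values measure the spread between lines or clones, not between cultures of 1 line. Values are FPKM, which count sequenced fragments per unit of transcript length and of library size. In bulk RNA, fewer cells of a type and less RNA per cell cannot be told apart.

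The labels were checked against marker genes. The summed FPKM of 8 fibroblast markers (among them Col1a1 and Dcn) was between 1.82 and 34.2 in the iNSC libraries and 0.877 in cNSC, against 1490.05 in MEF, where 7 of 8 reached 1 FPKM. What remained in pOKSM and the mcBKSM clones was mostly Col3a1, at 20.2 FPKM in pOKSM and 10.3 and 25.8 FPKM in clones 1 and 3. The summed FPKM of 8 neural stem cell markers was between 1113 and 6033 in the iNSC libraries and 2598 in cNSC, against 9.90 in MEF, where 1 of 8 reached 1 FPKM. All 8 reached 1 FPKM in every iNSC library and in cNSC. The estimated depth lay between 11.5 and 16.8 (in units of 1e6 fragments) per library, where 3 fragments on 0.5 kb of transcript make between 0.357 and 0.521 FPKM. This floor covers counting error only. The Y-linked gene Ddx3y had 0.0391 FPKM in DTA, 11.4 in pBKSM, 12.5 in pOKSM, 28.3 and 16.2 in the clones and 16.4 in cNSC, and was listed at 0 in MEF. MEF and DTA thus lacked the Ddx3y RNA that the other 5 libraries held. The Y-linked genes Kdm5d and Uty were split in the same way, while Eif2s3y was listed at 0 in pOKSM and both clones too.

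Of the 83 genes, 79 reached 1 FPKM in at least 1 library and were tested. The 4 that did not were Cox4i2, Cox7b2, Cox8b and Cox8c, all of them isoforms of restricted tissue range. At the other end, 74 genes stood at 10 FPKM or more in every library and 69 at 50 FPKM or more. The 79 tested genes together held 4.06% of all FPKM in DTA, 4.38% in pBKSM, 3.72% in pOKSM, 3.72% and 3.43% in mcBKSM clones 1 and 3, 3.19% in cNSC and 3.31% in MEF. All 5 iNSC libraries lay above both cNSC and MEF on this share, with pBKSM highest and clone 3 nearest to MEF. Among the 74 genes, the highest library was less than 2-fold above the lowest for 42 genes, 2-fold to under 3-fold for 27, and 3-fold or more for 5, with a median of 1.95-fold. For the 4929 other genes at 10 FPKM or more in every library the median was 1.93-fold, and 14.0% were 3-fold or more apart, against 6.76% of the 74. The subunit genes thus varied over a range like that of these other genes, which were not matched to them in level, with few far apart.

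The order of the libraries was less even. The pBKSM library was the highest for 53 of the 74 genes, whereas it was highest for 20.7% of the other genes at 10 FPKM or more in every library. The cNSC library was the lowest for 39 of the 74, whereas it was lowest for 19.9% of the other genes. MEF was lowest for 17 of the 74, against 22.9% of the other genes, and highest for 6, against 28.1%. Clone 1 was highest for 13 of the 74, against 13.8% of the other genes, so the counts lowest in MEF and highest in clone 1 were near those shares or not far above. Summed over all genes, FPKM was also highest in pBKSM (594605). It was lowest in DTA (445433) and cNSC (451974), with 537140 in MEF and 544949 to 557900 in pOKSM and the clones. The part of these sums in the order was not tested.

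**Figure D1:**
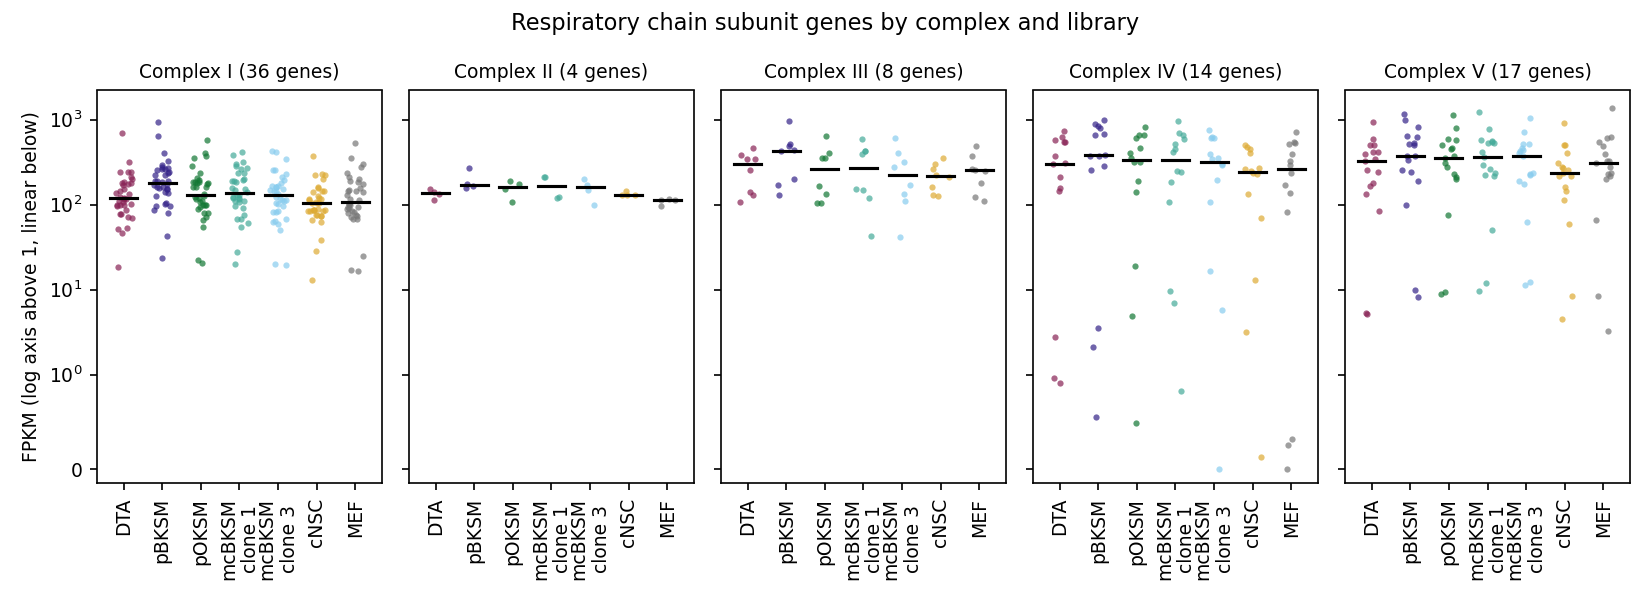
FPKM of the 79 tested subunit genes in each library, by complex; a point is 1 gene, the bar is the median, and the axis is logarithmic above 1 FPKM and linear below. In every library 74 of the 79 genes stay at 10 FPKM or more, and the points that fall below are Cox6a2, Cox6b2 and Cox7a1 of complex IV and Atp5s and Atp5sl of complex V.

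By complex, median levels were lowest for complexes I and II and higher for III, IV and V. Complex I had a median of 119 FPKM in DTA, 178 in pBKSM, 129.6 in pOKSM, 135 and 128 in clones 1 and 3, 105 in cNSC and 108 in MEF. Complex V had a median of 329 FPKM in DTA, 378 in pBKSM, 356 in pOKSM, 365 and 377 in the clones, 237 in cNSC and 308 in MEF. Within complex I, the 7 core subunits of the peripheral arm, which carry the electron path, had medians between 85.8 FPKM (cNSC) and 109 FPKM (clone 1). The 9 supernumerary subunits of that arm had medians between 116 FPKM (cNSC) and 224 FPKM (pBKSM), and the 19 genes of the membrane arm between 106 FPKM (cNSC) and 189 FPKM (pBKSM).

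Each complex had its most and least abundant genes, ranked here by the mean FPKM over the 7 libraries. Among the genes named for complex I, the most abundant was Ndufa4, now placed in complex IV, with 690.2 FPKM in DTA, 926 in pBKSM, 573 in pOKSM, 388 and 418 in mcBKSM clones 1 and 3, 373 in cNSC and 527 in MEF. Ndufa4 was highest in pBKSM and DTA, and the clones lay below MEF. The least abundant was Ndufa11, a membrane arm subunit, with 18.2 FPKM in DTA, 23.8 in pBKSM, 20.7 in pOKSM, 19.9 and 20.3 in the clones, 13.03 in cNSC and 16.8 in MEF. In complex III, Uqcrc2, a core protein, was the least abundant, between 103 and 129.6 FPKM in the iNSC libraries, with 126 in cNSC and 109.5 in MEF. Its partner Uqcrc1 was the steadiest gene of the 74, with 142 FPKM in DTA, 172 in pBKSM, 166 in pOKSM, 149 and 169.7 in the clones, 161 in cNSC and 177 in MEF, a 1.25-fold range. In complex V the most abundant was Atp5b, the catalytic beta subunit, with 948 FPKM in DTA, 1149 in pBKSM, 1144 in pOKSM, 1216 and 1037 in the clones, 916 in cNSC and 1380.0 in MEF. MEF was the highest library for Atp5b, above all iNSC lines. The least abundant was Atp5s, a coupling factor that is not a core subunit, with 5.11 FPKM in DTA, 8.26 in pBKSM, 8.84 in pOKSM, 11.9 and 12.4 in the clones, 4.51 in cNSC and 3.26 in MEF. All iNSC lines lay above both cNSC and MEF for Atp5s, though it stayed far below its partners. The complex IV genes Cox7b2 and Cox8c were listed at 0 in all 7 libraries, and Cox8a had the highest mean there.

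Annotation and sequence limit some of these values. The tested genes have short transcripts, with a median of 659 bases against 2226.5 for other tested genes. Of the 83 genes, 46 share no stretch of 50 bases with transcripts of another gene, and 18 share over 10% of their stretches. Fragments from such stretches could be split between gene and copy, so values of these 18 genes are uncertain (among those described below Atp5f1, Atp5g1, Atp5g2, Atp5h, Cox6a1, Cox7a2l, Cox7c, Ndufb4, Ndufb9, Ndufs5 and Uqcrb). The case that matters most here is Ndufs5, a membrane arm subunit of complex I, and BC002163, a processed pseudogene of it. Their first 150 bases are shown because a result below turns on them. Over the pseudogene's length of 319 bases, 317 bases (99.4%) are identical, and the capitals mark the 2 that differ, T81C and A105G, counted from the start of the coding sequence and given as the base of Ndufs5 first. They are taken from GENCODE vM21, on mm10, with Ndufs5 at chr4:123712710-123718202 on the minus strand and BC002163 at chr16:42955631-42955949 on the plus strand.
Ndufs5: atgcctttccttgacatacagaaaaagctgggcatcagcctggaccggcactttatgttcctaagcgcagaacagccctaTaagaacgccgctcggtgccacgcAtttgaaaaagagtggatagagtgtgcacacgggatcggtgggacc
BC002163: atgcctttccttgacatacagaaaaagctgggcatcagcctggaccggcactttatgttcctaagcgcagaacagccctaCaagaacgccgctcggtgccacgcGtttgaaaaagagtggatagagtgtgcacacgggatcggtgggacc

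Promoters of subunit genes are known to hold sites for NRF1, for ETS factors such as GABP, and for YY1. RefSeq windows of 250 bases before to 50 after the start (GRCm38.p6) were found for 69 of the 83 genes, 75 windows in all. The NRF1 motif GCGCATGC, searched on both strands, lay in 13.3% of the 75 windows and in 2.71% of all 32851 windows. The ETS motif CCGGAAG lay in 21.3% against 8.86%, and the YY1 motif AAGATGG in 17.3% against 6.34%. A match is a description of letters and not a site. Shown are the windows of Cox6b1 and Cox6b2, a common and a restricted isoform of the same subunit, and of Cox6a1, whose window has the motifs of both NRF1 and ETS factors. The capitals mark motif matches: in Cox6b1 an ETS match on the opposite strand, and in Cox6a1 a palindrome in which NRF1 matches on both strands overlap, followed by an ETS match on the opposite strand. The window of Cox6b2 has none of the 3 motifs.
Cox6b1 (chr7:30626065-30626364, minus strand): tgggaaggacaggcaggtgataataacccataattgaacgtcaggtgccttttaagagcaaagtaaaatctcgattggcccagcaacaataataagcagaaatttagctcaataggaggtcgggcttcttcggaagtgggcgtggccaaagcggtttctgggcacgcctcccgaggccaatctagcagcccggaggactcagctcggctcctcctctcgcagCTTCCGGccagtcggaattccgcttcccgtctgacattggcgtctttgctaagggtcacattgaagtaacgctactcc
Cox6b2 (chr7:4753045-4753344, minus strand): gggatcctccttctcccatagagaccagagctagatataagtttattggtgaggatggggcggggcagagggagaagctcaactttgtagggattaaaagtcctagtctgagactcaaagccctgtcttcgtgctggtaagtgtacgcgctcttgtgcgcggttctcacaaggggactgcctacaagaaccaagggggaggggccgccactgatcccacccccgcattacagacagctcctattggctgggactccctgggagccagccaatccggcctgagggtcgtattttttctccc
Cox6a1 (chr5:115348909-115349208, minus strand): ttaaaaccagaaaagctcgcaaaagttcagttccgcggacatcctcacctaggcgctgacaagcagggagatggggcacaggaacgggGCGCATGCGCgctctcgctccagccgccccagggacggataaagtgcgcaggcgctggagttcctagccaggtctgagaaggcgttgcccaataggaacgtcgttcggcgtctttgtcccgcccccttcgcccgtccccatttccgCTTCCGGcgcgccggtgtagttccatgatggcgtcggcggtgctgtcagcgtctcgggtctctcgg

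Isoform use was examined next. In every library the common isoform of Cox4, Cox6a, Cox6b, Cox7b and Cox8 made up nearly all of its pair. Cox4i1, the common form of subunit 4, had 547 FPKM in DTA, 887 in pBKSM, 668 in pOKSM, 701 and 631 in mcBKSM clones 1 and 3, 454 in cNSC and 551 in MEF. Cox4i2, the hypoxia-linked lung form, was listed at 0 in all 5 iNSC libraries and had 0.110 FPKM in both cNSC and MEF, under the floor. Cox6a1 had 543 FPKM in DTA, 657 in pBKSM, 608 in pOKSM, 665 and 612 in clones 1 and 3, 403 in cNSC and 532 in MEF. Its heart and muscle partner Cox6a2 had 0.962 FPKM in DTA, 2.13 in pBKSM, 0.491 in pOKSM, 0.829 and 0 in the clones, 0.125 in cNSC and 0.251 in MEF. Cox6a2 was thus low everywhere and highest in pBKSM, where it made up 0.323% of the Cox6a pair. Cox8a had 739 FPKM in DTA, 997 in pBKSM, 817 in pOKSM, 953 and 760.0 in the clones, 508 in cNSC and 720.5 in MEF. Of its partners, the muscle form Cox8b had 0.455 FPKM in pBKSM and 0.838 in pOKSM and was listed at 0 elsewhere, and the testis form Cox8c was listed at 0 throughout, like Cox7b2, the testis partner of Cox7b.

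Cox6b2 and Cox7a1 were the most abundant of the restricted isoforms. Cox6b2, known from testis, had 2.74 FPKM in DTA, 0.556 in pBKSM, 19.2 in pOKSM, 9.67 and 16.6 in mcBKSM clones 1 and 3, 13.1 in cNSC, and was listed at 0 in MEF. Cox6b2 was thus high in pOKSM, both clones and cNSC, and low in DTA, pBKSM and MEF. Its common partner Cox6b1 had 626 FPKM in DTA, 835 in pBKSM, 668 in pOKSM, 586 and 612 in the clones, 470.0 in cNSC and 390.1 in MEF. Cox6b2 made up 1.51% ± 1.24 of the pair in iNSC libraries (SD, n = 5), against 2.71% in cNSC and none in MEF. Cox7a1, the heart and muscle form of its subunit, had 0.906 FPKM in DTA, 3.58 in pBKSM, 4.95 in pOKSM, 6.96 and 5.69 in the clones, 3.14 in cNSC and 0.314 in MEF. All 5 iNSC libraries lay above MEF and only DTA below cNSC. Neither gene passed the test against MEF (log2 difference 2.89 for Cox6b2, adjusted p = 0.240, and 1.89 for Cox7a1, adjusted p = 0.160), and against cNSC the differences were -0.93 for Cox6b2 and 0.24 for Cox7a1. The summed FPKM of 6 male germ cell markers was at most 0.911 in any library, and that of 8 striated muscle markers at most 3.64 (DTA, mostly Actc1). All 8 muscle markers were listed at 0 in clone 3, where Cox7a1 had 5.69 FPKM, and all 6 germ cell markers were listed at 0 in MEF.

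**Figure D2:**
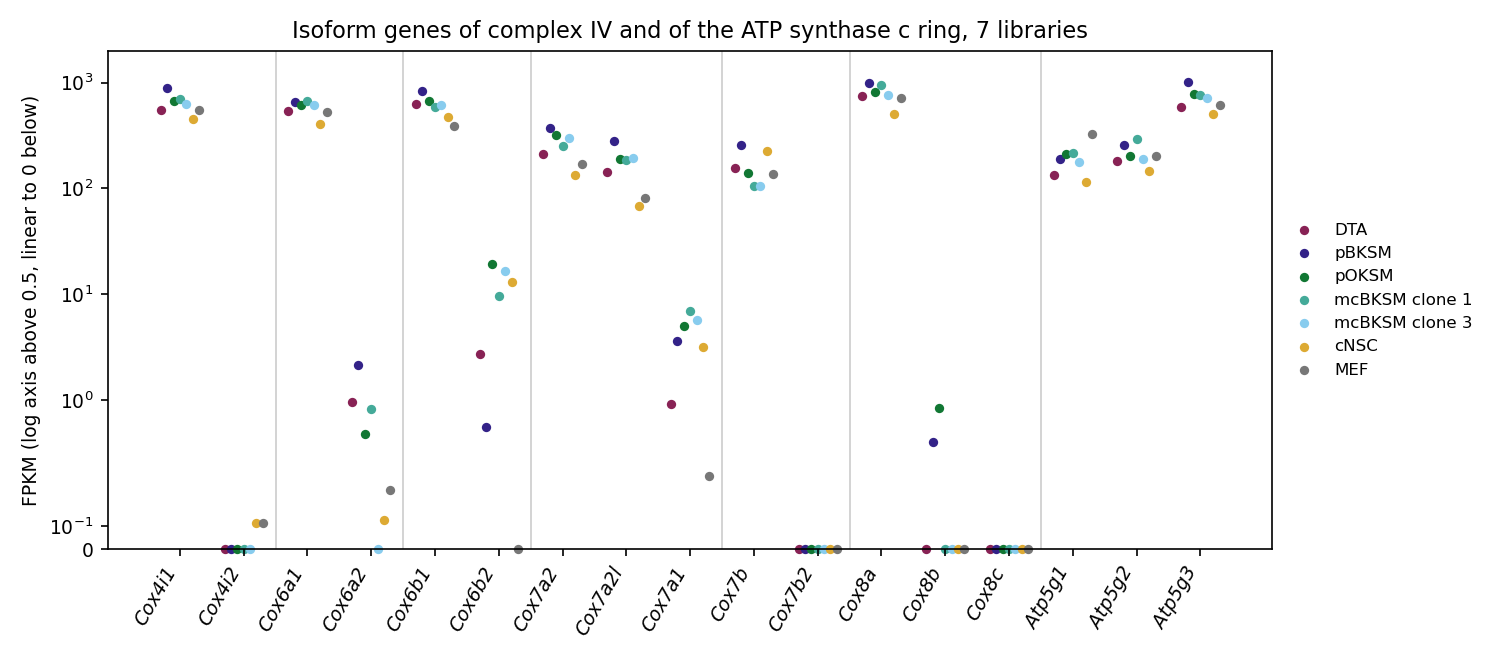
FPKM of the isoform genes in each library, on an axis that is logarithmic above 0.5 FPKM and linear to 0 below; a point is 1 library and grey lines part the isoform groups. The common isoforms lie between 68.8 and 1003 FPKM in every library, while Cox6b2 and Cox7a1 stay at or below 19.2 FPKM and Cox4i2, Cox6a2 and Cox8b lie at or below 2.13 FPKM.

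The Cox7a and Atp5g groups of common isoforms were split more evenly. Of the Cox7a genes, Cox7a2 had 210.2 FPKM in DTA, 371 in pBKSM, 320.3 in pOKSM, 252 and 298 in clones 1 and 3, 135 in cNSC and 169.7 in MEF. Cox7a2l, which helps to join complex IV to complex III in supercomplexes, had 144 FPKM in DTA, 281 in pBKSM, 189 in pOKSM, 185 and 195 in the clones, 68.8 in cNSC and 81.4 in MEF. All iNSC libraries lay above both cNSC and MEF for both genes. The share of Cox7a2l in the group was 40.2% ± 2.37 in iNSC libraries (SD, n = 5), against 33.2% in cNSC and 32.4% in MEF, below the lowest iNSC library (36.8%, pOKSM). Cox7a2l shares 17.7% of its stretches with the pseudogene Gm6969. The c ring of the ATP synthase is encoded by Atp5g1, Atp5g2 and Atp5g3, which give the same mature protein. Atp5g3 made up 65.4% ± 3.25 of the 3 in iNSC libraries (SD, n = 5), against 65.7% in cNSC and 53.7% in MEF. Atp5g1 made up 15.7% ± 1.77 in iNSC libraries, against 14.99% in cNSC and 28.6% in MEF. By level, Atp5g1 had 133 FPKM in DTA, 191 in pBKSM, 210.1 in pOKSM, 215 and 176 in the clones, 114 in cNSC and 326 in MEF. MEF thus lay above all other libraries for Atp5g1. Atp5g2 had 181 FPKM in DTA, 254 in pBKSM, 201 in pOKSM, 291 and 189 in the clones, 146 in cNSC and 202 in MEF. Atp5g3 had 594 FPKM in DTA, 1003 in pBKSM, 787 in pOKSM, 767 and 717 in the clones, 499 in cNSC and 612 in MEF. For Atp5g2 and Atp5g3 MEF lay within the range of the iNSC lines and cNSC below it.

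iNSC lines were compared with MEF as the fibroblast reference. MEF lacked the RNA of the Y-linked gene Ddx3y that pBKSM, pOKSM and both clones held. Conversion therefore cannot be told apart here from other differences between the cells the libraries came from. Of the 79 genes, 1 was higher in iNSC lines by limma at an adjusted p under 0.05 and none was lower, where 6.77% of the 13042 genes tested were higher and 9.55% lower. At an unadjusted p under 0.05, 11 were higher and 1 lower, where 1922 of the 13042 genes were higher and 2294 lower. The median difference of the 79 was 0.20 on the log2(FPKM + 1) scale, against 0.03 for all genes tested and 0.08 for genes averaging at least 50 FPKM, with 61 genes above 0 and 18 below. Without pBKSM the median was 0.13. All 5 iNSC libraries exceeded MEF for 30 of the 79 genes and lay below MEF for 6, where 31.8% and 31.7% of all tested genes did so. By complex, the median difference was 0.42 for complex II and 0.39 for complex IV, and 0.14, 0.24 and 0.13 for complexes I, III and V.

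The gene called was Ndufs5, and the call was lost once the FPKM of BC002163 was added to it without regard to length. Ndufs5 had 70.3 FPKM in DTA, 158 in pBKSM, 108 in pOKSM, 139.6 and 81.6 in mcBKSM clones 1 and 3, 66.6 in cNSC and 17.0 in MEF. All iNSC libraries lay above MEF, for a log2 difference of 2.58 ± 0.47 (SE, adjusted p = 0.0192). BC002163 had 1.79 FPKM in DTA, 6.61 in pBKSM, 8.29 in pOKSM, 7.61 and 7.20 in the clones, 3.36 in cNSC and 69.5 in MEF. For BC002163 MEF was the highest library and all others were low. Ndufs5 and BC002163 together came to 72.1 FPKM in DTA, 165 in pBKSM, 116 in pOKSM, 147 and 88.8 in the clones, 69.9 in cNSC and 86.5 in MEF. This plain sum does not allow for length. BC002163 has 319 bases and the median Ndufs5 transcript 562, so the same fragments make more FPKM on BC002163. That raises the plain sum most in MEF. No sum adjusted for length was tested, so what follows on the sum holds for the plain sum only. On the sum, MEF lay within the range of the iNSC libraries and the difference was 0.38 ± 0.47 (adjusted p = 0.608), so Ndufs5 no longer passed. It was also lost without pOKSM (adjusted p = 0.0592). Over 12 alternative settings its adjusted p ranged between 0.00938 and 0.608. Counts of calls moved with single libraries: without DTA, 9 genes were higher and 1 lower (Atp5g1), without pBKSM 3 were higher (Cox7a2l, Ndufc2 and Ndufs5), and without pOKSM none was. The shares of all genes called in these fits are not given here.

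The other differences did not pass the test, among them the large ones of Cox6b2 and Cox7a1 given above. Named here by complex are the largest and some smaller ones. In complex I, Ndufc2, a membrane arm subunit, had 243 FPKM in DTA, 649 in pBKSM, 358 in pOKSM, 266 and 254 in the clones, 202 in cNSC and 90.3 in MEF. MEF was the lowest library for Ndufc2 and cNSC the next, with no overlap between iNSC lines and MEF (1.85 ± 0.56, adjusted p = 0.0825, between 0.0250 and 0.169 over 11 alternatives). Ndufs6, a peripheral arm subunit, had 154 FPKM in DTA, 253 in pBKSM, 174 in pOKSM, 196 and 144 in the clones, 116 in cNSC and 84.7 in MEF, without overlap (1.08 ± 0.32, adjusted p = 0.0767). In complex II, Sdhc, a membrane anchor, had 151 FPKM in DTA, 267 in pBKSM, 190.3 in pOKSM, 214 and 201 in the clones, 131 in cNSC and 96.2 in MEF (1.06 ± 0.30, adjusted p = 0.0709). Sdhb, the iron-sulfur subunit, had 132 FPKM in DTA, 175 in pBKSM, 174 in pOKSM, 212 and 172 in the clones, 129 in cNSC and 118 in MEF. For both anchor and iron-sulfur gene the iNSC libraries lay above both cNSC and MEF, while Sdha, the flavoprotein, had between 99.8 and 158 FPKM in iNSC libraries, 144 in cNSC and 114 in MEF, with overlap. In complex IV, Cox7a2l differed by 1.25 ± 0.34 (adjusted p = 0.0633) and Cox7c by 0.90 ± 0.38 (adjusted p = 0.168). In complex V the largest difference was that of Atp5s (1.22 ± 0.46, adjusted p = 0.136). Atp5e, the epsilon subunit of the central stalk, had 395 FPKM in DTA, 333 in pBKSM, 455 in pOKSM, 527 and 467 in the clones, and 237 in both cNSC and MEF (0.86 ± 0.28, adjusted p = 0.0991), with every iNSC library above both. In complex III, Uqcrb had the largest difference (-1.15 ± 1.40, adjusted p = 0.599), with MEF inside the wide range of the iNSC lines. Uqcrq, another small subunit, had 343 FPKM in DTA, 435 in pBKSM, 354 in pOKSM, 429.9 and 280.0 in the clones, 263 in cNSC and 247 in MEF, again without overlap. Atp5g1 was the gene lower at an unadjusted p under 0.05, by -0.83 ± 0.29 (adjusted p = 0.112).

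iNSC lines and cNSC were compared to see how near the induced cells came to cortical ones. The subunit genes lay mostly above cNSC, but no single gene passed the test. Of the 79, none was higher or lower by limma at an adjusted p under 0.05, where 0.207% of 13042 genes were higher and 0.958% lower. At an unadjusted p under 0.05, 17 were higher and none lower, where 790 and 989 of the 13042 genes were. Of 1857 genes averaging at least 50 FPKM, 218 were higher and 73 lower at that level. The median difference was 0.52, against 0.00 for all genes tested and 0.19 for genes averaging at least 50 FPKM, and 72 of 79 genes lay above 0. All 5 iNSC libraries exceeded cNSC for 56 of the 79 genes, where 22.2% of all tested genes did so, and for none did all 5 lie below, where 23.6% did so. The medians by complex were 0.49 for I, 0.25 for II, 0.33 for III, 0.59 for IV and 0.58 for V. In complex I, all 19 membrane arm genes and 15 of 16 peripheral arm genes lay above 0, as did all 17 genes of complex V.

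Scaling and transcript length bear on the size of that median. With quantile normalization it was 0.32, against 0.05 for all genes. With median-ratio scaling it was 0.46, against -0.03. Summed over all genes, FPKM was 451974 in cNSC, against 445433 in DTA and 544949 to 594605 in the other iNSC libraries. The tested subunit genes held 3.19% of the sum in cNSC, against 3.43% to 4.38% in iNSC libraries. Other genes with transcripts under 0.75 kb had a median of 0.23, against 0.58 for the 43 subunit genes of that length, and other genes of 0.75 to under 1.5 kb had 0.14, against 0.34 for 26 subunit genes. In both length classes the median of the subunit genes was above that of other genes; the part of length in the result was not tested further. Without DTA, 10 genes were called higher, namely Atp5c1, Atp5d, Atp5f1, Atp5h, Atp5j2, Cox6a1, Ndufa13, Ndufa6, Ndufb6 and Ndufc1. The share of all genes called in that fit is not given here, so the count has no background.

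The largest differences from cNSC were in Cox7a2l (1.48 ± 0.34, adjusted p = 0.157) and Cox7a2 (1.07 ± 0.32, adjusted p = 0.259). Ndufc1, a membrane arm subunit, had 201 FPKM in DTA, 274 in pBKSM, 233 in pOKSM, 261 and 226 in mcBKSM clones 1 and 3, against 125 in cNSC, with 234 in MEF. Ndufa6, a peripheral arm subunit that binds the acyl carrier protein, had 136 FPKM in DTA, 183 in pBKSM, 179.9 in pOKSM, 233 and 192 in the clones, against 88.5 in cNSC, with 201 in MEF. For both, cNSC was the lowest library by a clear gap and MEF lay among the iNSC lines (0.92 ± 0.21 with adjusted p = 0.156 for Ndufc1, and 1.03 ± 0.28 with adjusted p = 0.222 for Ndufa6). Uqcrh, the hinge protein of complex III, had 467 FPKM in DTA, 951 in pBKSM, 643 in pOKSM, 587 and 611 in the clones, against 351 in cNSC, with 495 in MEF. Atp5j2, an accessory subunit of the membrane part of the ATP synthase, had 416 FPKM in DTA, 646 in pBKSM, 585 in pOKSM, 535 and 516 in the clones, against 273 in cNSC, with 489 in MEF. For these too cNSC was the lowest of the 7 libraries. The genes below cNSC were few and led by Cox6b2 (-0.93 ± 1.47), Uqcrb (-0.85 ± 1.40) and Cox7b (-0.65 ± 0.50), whose iNSC libraries spread widely.

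**Figure D3:**
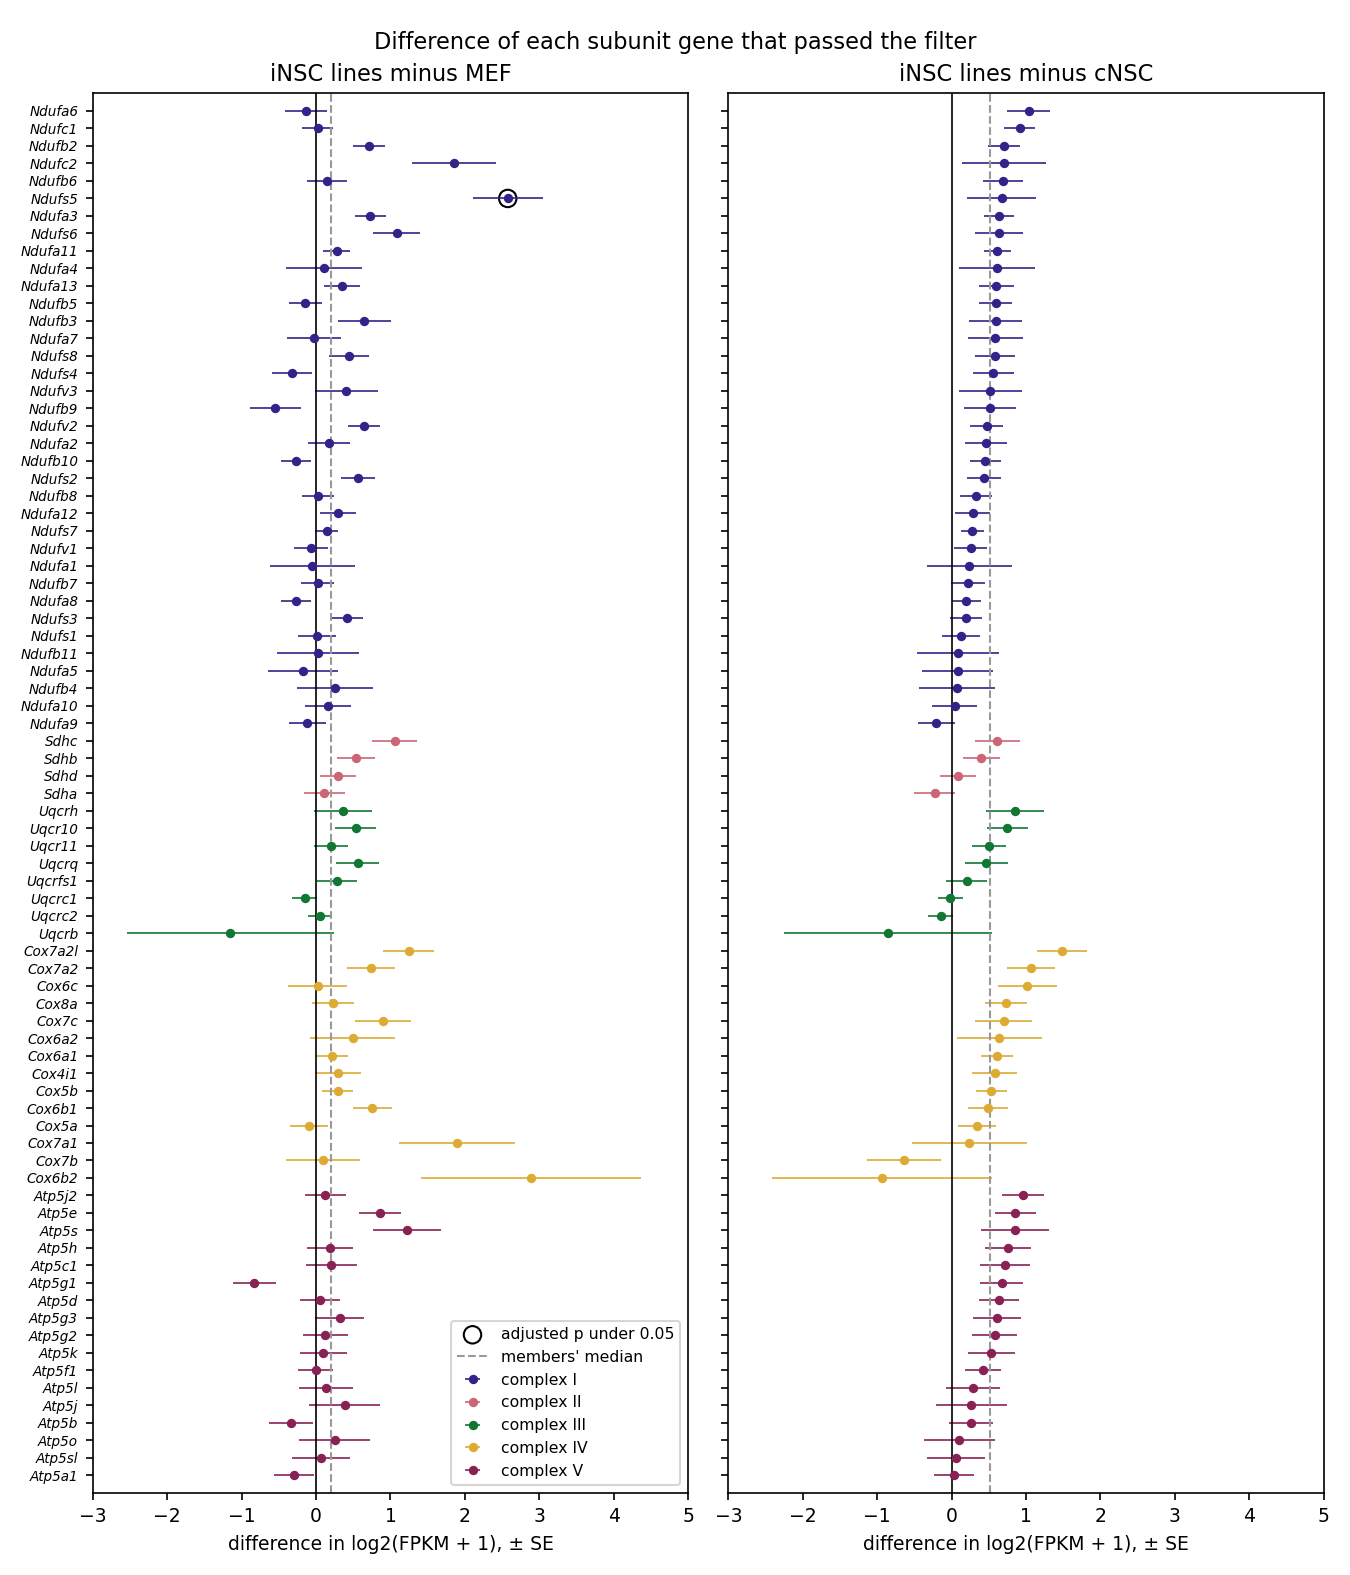
Difference in log2(FPKM + 1) of each of the 79 tested genes, iNSC lines minus MEF (left) and minus cNSC (right), with SE bars, coloured by complex; dashed lines are medians and the ring marks an adjusted p under 0.05. Against cNSC 72 of 79 points lie above 0 around a median of 0.52, against MEF 61 around 0.20, and Ndufs5 is the ringed point.

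The reference cells were set side by side as well, with no test since each is 1 library. Of 78 genes with at least 1 FPKM in either, 4 were 2-fold or more higher in cNSC (Cox6b2, Ndufs5, Cox7a1 and Ndufc2) and 3 lower (Atp5g1, Ndufa6 and Ndufb9), where 16.3% and 15.5% of 12219 genes were. With BC002163 added, Ndufs5 came to 69.9 FPKM in cNSC, against 86.5 in MEF, the opposite direction. That sum does not allow for the shorter length of BC002163 either, so its direction is uncertain. The median difference was -0.23, with 30 genes above 0 and 48 below.

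The DTA line was compared with the other 4 iNSC libraries. Most of its subunit genes lay below the other lines, by a median close to that of abundant genes as a whole. Of 79, none was called by limma in either direction, where 0.202% of 12378 genes were higher and 0.153% lower. At an unadjusted p under 0.05, none was higher and 16 were lower, where 1291 and 1242 of the 12378 genes were. Of 1855 genes averaging at least 50 FPKM, 72 were higher and 530 lower at that level. The median difference was -0.26, and it was -0.26 for all genes averaging at least 50 FPKM and -0.01 for all genes tested. With quantile normalization the median of the subunit genes was -0.01, against -0.04 for all genes. With median-ratio scaling it was -0.19, against 0.05, so the size of the shift depended on which scaling was used. Summed over all genes, FPKM was lowest in DTA (445433). The tested subunit genes held 4.06% of it, below pBKSM (4.38%) and above pOKSM and the clones (3.43% to 3.72%). Other genes with transcripts under 0.75 kb had a median of -0.22, against -0.25 for subunit genes. At 0.75 to under 1.5 kb the medians were -0.18 and -0.32. The part of scaling and length was not tested. DTA lay below all 4 other libraries for 45 of 79 genes and above all 4 for 1 (Ndufb4), where 29.6% and 29.2% of all tested genes did so. Complex V held 8 of the 16 genes, with a median of -0.45 over its 17 members. Atp5c1, the gamma subunit that turns in the central stalk, had 240.0 FPKM in DTA, against 375 in pBKSM, 369 in pOKSM and 421 and 408 in mcBKSM clones 1 and 3 (-0.71 ± 0.14, adjusted p = 0.0985). Ndufb6, a membrane arm subunit of complex I, had 124 FPKM in DTA, against 189 in pBKSM, 185 in pOKSM and 188 and 181 in the clones (-0.58 ± 0.11, adjusted p = 0.0990). In both genes DTA stood apart below 4 libraries that lay close together. Without pBKSM, 11 genes were called lower, among them Atp5c1, Ndufb6 and Cox7a1, and 3 higher (Ndufa5, Ndufb4 and Ndufb11). The share of all genes called in that fit is not given here. For Uqcrb DTA, at 257 FPKM, lay below pBKSM (431) and above the other 3 libraries.

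The pBKSM line was compared with the mcBKSM clones. With 1 line against 2 clones, the placing of the factors on 1 transcript cannot be told apart from differences between single lines. Uqcrb, Ndufa1, Ndufc2 and Cox7b, 4 of the 79 genes, were higher in pBKSM by limma in the fit of 6 label groups and none was lower, where 3.74% of 13042 genes were higher and 2.08% lower. At an unadjusted p under 0.05, 24 were higher and 3 lower, where 2624 of the 13042 genes were higher and 2256 lower. The median difference was 0.35, against 0.00 for all genes and 0.09 for genes averaging at least 50 FPKM, with 67 of 79 above 0, among them all 8 genes of complex III and all 19 membrane arm genes of complex I. With quantile normalization the median was 0.09, against -0.02 for all genes. With median-ratio scaling it was 0.31, against -0.02. Complex V had a median of 0.08 without rescaling, with 12 of 17 above 0. The pBKSM library lay above both clones for 58 of the 79 genes and below both for 9, where 42.9% of all tested genes did so on either side. The fit has 1 residual degree of freedom, from the 2 clones, and pBKSM is a single library assumed to vary like them.

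Uqcrb, a small subunit of complex III near the ubiquinone site, differed most. It had 431 FPKM in pBKSM, against 42.2 and 41.9 in mcBKSM clones 1 and 3, and stood at 257 in DTA, 106 in pOKSM, 210.4 in cNSC and 259 in MEF. The clones were the 2 lowest libraries, pOKSM was the next, and pBKSM was the highest (3.33 ± 0.07, adjusted p = 0.0367). Of its stretches of 50 bases, 43.2% occur in other genes, 27.2% in the pseudogene Gm16089, which is not analysed here, so the value of Uqcrb is uncertain. The other 7 genes of complex III differed by between 0.11 and 0.67.

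The other 3 genes called were Ndufa1 and Cox7b on chromosome X and Ndufc2 on chromosome 7. Ndufa1, a small membrane arm subunit, had 169 FPKM in pBKSM, against 61.3 and 59.8 in clones 1 and 3, and stood at 99.6 in DTA, 79.5 in pOKSM, 73.3 in cNSC and 89.8 in MEF (1.47 ± 0.07, adjusted p = 0.0417). Cox7b, a common complex IV subunit, had 257 FPKM in pBKSM, against 106 in both clones, and stood at 157 in DTA, 140.5 in pOKSM, 228 in cNSC and 136 in MEF (1.27 ± 0.07, adjusted p = 0.0451). For both X-linked genes pBKSM was the highest library and the clones were the lowest. Ndufc2 had 649 FPKM in pBKSM, against 266 and 254 in the clones (1.32 ± 0.09, adjusted p = 0.0491), with DTA (243), cNSC (202) and MEF (90.3) below them. Over 7 alternatives the adjusted p of Uqcrb ranged between 0.0120 and 0.0595, that of Ndufa1 between 0.0167 and 0.0609, that of Cox7b between 0.0193 and 0.0609 and that of Ndufc2 between 0.0205 and 0.0659. Without the mean-variance trend in the limma fit, none of the 4 passed. In the other direction, Cox6b2 had 0.556 FPKM in pBKSM, against 9.67 and 16.6 in the clones (-3.14 ± 0.44, adjusted p = 0.0763, between 0.0270 and 0.131 over the alternatives).

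**Figure D4:**
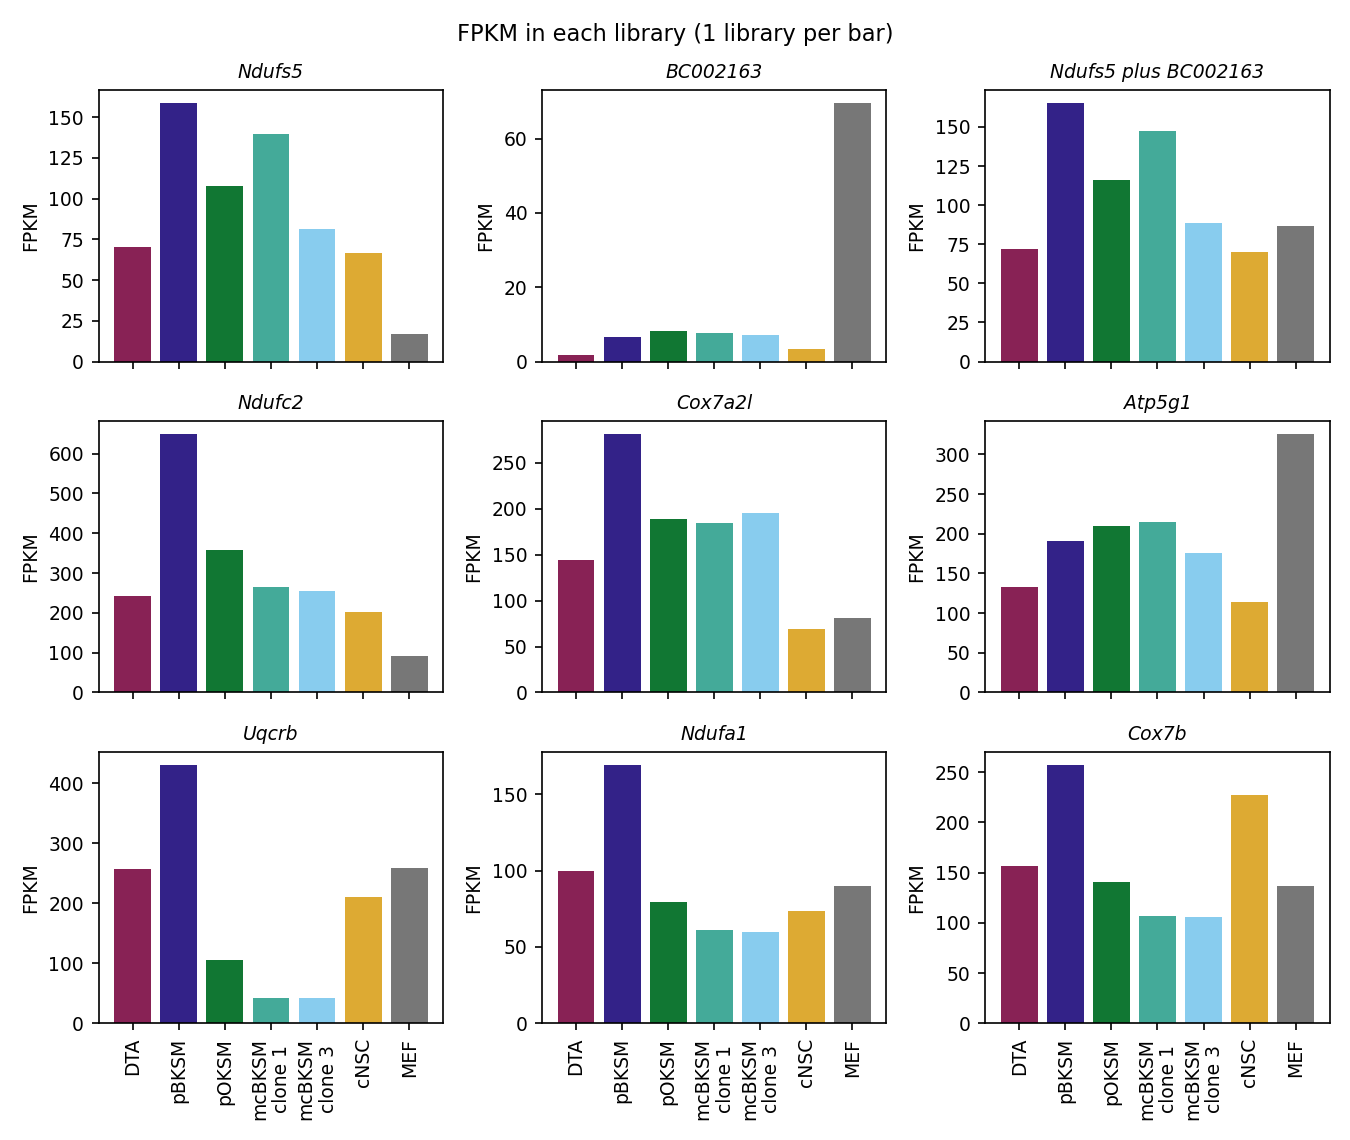
FPKM in each library of Ndufs5, its pseudogene BC002163, their sum, and 6 further genes; each bar is 1 library and each panel has its own axis from 0. Ndufs5 and BC002163 are opposite in MEF (17.0 and 69.5 FPKM), while their sum (86.5), not adjusted for length, is within the iNSC range. Uqcrb, Ndufa1 and Cox7b are lowest in the 2 mcBKSM clones.

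Between pBKSM and the clones, the medians of other genes also differed from chromosome to chromosome. The median difference of the 441 other tested genes on chromosome X was 0.62, the highest of 20 chromosomes, and the 3 X-linked subunit genes had a median of 1.34. The third of these, Ndufb11, a membrane arm subunit, had 222 FPKM in pBKSM, against 91.5 and 82.2 in clones 1 and 3 (1.34 ± 0.11, adjusted p = 0.0545). Chromosome 6 was next with 0.32 for other genes and 0.81 for its 4 subunit genes, chromosome 1 had 0.22 and 0.31 for 6, chromosome 16 had 0.17 and 1.10 for 3 subunit genes, and chromosome 13, which holds Uqcrb, had 0.00 and 0.59 for 6. Set against the mean of the 7 libraries, the median X-linked gene stood, on the log2 scale, at 0.28 in DTA, 0.44 in pBKSM, -0.17 in pOKSM, -0.45 and -0.43 in the clones, 0.27 in cNSC and 0.01 in MEF. All 3 X-linked subunit genes were likewise highest in pBKSM and lowest in the clones. Xist RNA, made from an inactive X chromosome, was at most 0.182 FPKM in any library. The Y-linked gene Eif2s3y had 31.2 FPKM in pBKSM and 48.2 in cNSC, 0.0730 in DTA, and was listed at 0 in pOKSM, both clones and MEF. The part of the chromosomes in the 4 calls was not tested.

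**Figure D5:**
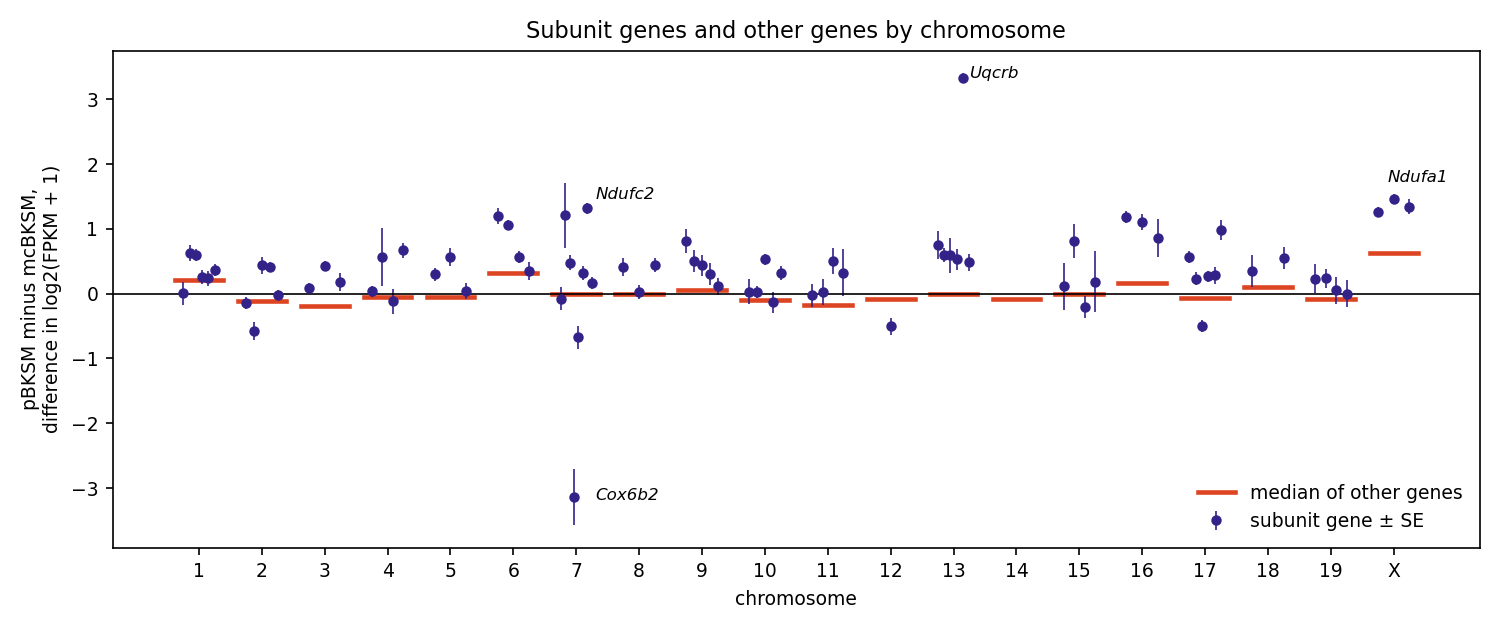
Difference in log2(FPKM + 1) between pBKSM and mcBKSM for each subunit gene by chromosome, with SE bars; red lines are medians of the other genes of that chromosome. The 3 genes of chromosome X lie above the highest red line (0.62), and Uqcrb lies far above a red line at 0.00 on chromosome 13.

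Taking pBKSM and pOKSM together against the mcBKSM clones left no gene called. Of the 79, none was higher or lower by limma at an adjusted p under 0.05, where 0.0% of 12091 genes were higher and 0.0165% lower. At an unadjusted p under 0.05, 5 were higher and none lower, where 731 and 283 of the 12091 genes were. The lowest adjusted p was 0.524, reached by Uqcrb among others. Its difference of 2.32 ± 0.66 rests on 431 FPKM in pBKSM and 106 in pOKSM, against 42.2 and 41.9 in the clones. The median difference was 0.19, against -0.01 for all genes tested, and with quantile normalization it was 0.05, against -0.04. With median-ratio scaling it was 0.18, against -0.02. Leaving out pOKSM leaves pBKSM alone against the clones, the same libraries as compared above but in a fit without the other libraries.

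Genes that build or serve the chain were compared between iNSC lines and MEF, where 6.77% of all tested genes were higher and 9.55% lower. Of 14 assembly factors of complex I, 3 were higher and 1 lower; the 4 calls became 2 (Acad9 and Ndufaf3) without pBKSM or without mcBKSM clone 1, and 1 (Acad9) without pOKSM or without clone 3. Ndufaf3, an early assembly factor, had 15.3 FPKM in DTA, 11.5 in pBKSM, 16.01 in pOKSM, 18.0 and 15.7 in mcBKSM clones 1 and 3, 10.1 in cNSC and 5.26 in MEF (1.37 ± 0.26, adjusted p = 0.0223). Ndufaf1 (1.07 ± 0.23, adjusted p = 0.0317) and Foxred1 (1.06 ± 0.24, adjusted p = 0.0375) were the others. Acad9, which builds the membrane arm and is also an acyl-CoA dehydrogenase, was lower, with 18.5 FPKM in DTA, 16.6 in pBKSM, 19.1 in pOKSM, 21.4 and 19.0 in the clones, 21.4 in cNSC and 48.0 in MEF (-1.30 ± 0.17, adjusted p = 0.00664). Of 4 complex II factors Sdhaf1 was higher (0.97, adjusted p = 0.0119) and Sdhaf2 lower (-0.72, adjusted p = 0.0446), and of 6 complex III factors Lyrm7 was higher (1.44, adjusted p = 0.0364). Sdhaf2 and Lyrm7 were no longer called with a filter at 5 FPKM, with quantile normalization, or without any 1 of pBKSM, pOKSM, clone 1 and clone 3, while Sdhaf1 was called in all of these. Without DTA, 3 complex III factors were called (Lyrm7, Uqcc1 and Uqcc2). None of 22 factors of complex IV, 5 of complex V or 17 electron donors was called by limma, with 6, 1 and 4 at an unadjusted p under 0.05. Of all 13042 genes tested, 1922 were higher and 2294 lower at that level. The median differences of these lists lay between 0.01 and 0.57, against 0.03 for all genes tested.

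Among 20 regulators of mitochondrial biogenesis, 2 were higher in iNSC lines than in MEF and 1 was lower. Esrra, a nuclear receptor that drives respiratory genes, had 21.1 FPKM in DTA, 22.9 in pBKSM, 25.1 in pOKSM, 23.3 and 25.04 in the clones, 17.1 in cNSC and 8.23 in MEF (1.40 ± 0.16, adjusted p = 0.00408). All iNSC lines lay above cNSC, and MEF was far below. Mterf2, a mitochondrial transcription factor, was higher (1.37, adjusted p = 0.0139), and the coactivator Ppargc1b was lower (-1.01, adjusted p = 0.0398), below 1 FPKM in every iNSC library. Nrf1 and Tfam were not called, with 0.10 for Tfam. Of 18 genes of the tricarboxylic acid cycle, Dlst was lower (-0.55, adjusted p = 0.0451), a call lost without any 1 of pBKSM, pOKSM and the clones. Mterf2 and Ppargc1b were not called without pOKSM, nor Ppargc1b without either clone, while Esrra was called in every leave-out. Of 11 hypoxia response genes 4 were lower, among them the glucose transporter Slc2a1, with 19.0 FPKM in DTA, 25.3 in pBKSM, 22.1 in pOKSM, 21.2 and 14.2 in the clones, 21.8 in cNSC and 87.7 in MEF (-2.08 ± 0.30, adjusted p = 0.00921). Egln3, an oxygen-sensing hydroxylase, was higher (3.75 ± 0.27, adjusted p = 6.4e-04), with between 11.4 and 17.0 FPKM in iNSC libraries, against 0.0732 in MEF, under the floor. The subunits that the name rule misses, Ndufab1, Cyc1, Usmg5 and 2010107E04Rik, were not called. Against cNSC, Suclg2 was the single gene of these lists called (1.07, adjusted p = 0.0465), and it was lost without any 1 of pBKSM, pOKSM and the clones. The genes encoded in mitochondrial DNA were not analysed here.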

How the data were processed

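RNA sequencing of 7 mouse cell preparations was analysed from 1 table of FPKM values for 24354 gene symbols, deposited by the authors. STAR 2.5.2b, Cufflinks 2.2.1, Cuffnorm, R 3.3.2 and the mm10 genome are named in the submitters' processing notes; their roles, their settings and how fragments matching several genes were shared out are not given in the sources here. All 7 columns of the deposited table were mapped to samples by name, with 0 left over. Replicates within a library were pooled before sequencing, per the labels.

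Members and gene lists were chosen with earlier results of these data known. Genes at 1 FPKM or more in at least 1 library were tested on log2(FPKM + 1) with limma 3.58.1 in R 4.3.3, with a mean-variance trend, and p-values were adjusted by Benjamini-Hochberg over all genes tested, with 0.05 as the threshold. Differences are on this scale, where low genes appear to change less than they do. The fit for iNSC lines against MEF and cNSC had 3 classes and 4 residual degrees of freedom, that for DTA 3, that for 6 label groups 1, and that for pBKSM and pOKSM together 2. Where 1 library stood alone, its spread was taken from the groups with several. cNSC and MEF were set side by side with no test, for genes at 1 FPKM or more in either. Depth, not given by FPKM, was estimated from the spacing of low values, which lay within 0.05 on a natural log scale of a few whole fragments for between 34.9% and 40.1% of low values, so it is rough. The fits were tested on simulated data. Values in every library are given for isoform genes, for the called or most different members of each complex and for the most and least abundant members of each complex. Alternatives were a pseudocount of 0.1, a filter at 5 FPKM or none, other normalizations, no trend, leaving out libraries and summing copies.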

Additional observations from a re-analysis of the deposited data

Results flagged for a closer look

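Among the 5 iNSC libraries, 10 of the 79 tested genes had 1 library set apart, where the gap to the nearest other library, as a share of the whole range, was above Dixon's critical value of 0.71. Chance alone passes this in about 5% of groups, and of 12953 tested genes with a range above 0 in these libraries 10.7% passed it, against 12.7% of the 79, so the count is near the background. DTA was the lowest in 6 of them. The share was 0.768 for Atp5c1 (240.0 FPKM in DTA, against 369 to 421 in the others), 0.850 for Atp5d and 0.809 for Atp5f1, all of complex V, and 0.765 for Atp5sl. It was 0.894 for Ndufb6 (124 FPKM in DTA, against 181 to 189 in the others) and 0.720 for Ndufa13, both in the membrane arm of complex I. In 3 genes of complex I pBKSM was the highest, with a share of 0.716 for Ndufa10, 0.870 for Ndufa8 and 0.794 for Ndufs4 (79.3 FPKM in pBKSM, against 49.9 to 54.9 in the others). In Ndufs7, a core subunit, mcBKSM clone 1 was the highest (120.5 FPKM, against 99.97 to 101 in the others), with a share of 0.941.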

How the results depend on the processing

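Calls of single genes rested on few libraries and moved with the settings. No named difference called by limma changed sign. Between cNSC and MEF, which were not tested, Ndufs5 turned from higher to lower in cNSC with copies summed. That plain sum does not allow for the shorter length of BC002163, so the direction is uncertain. For the alternatives below, the share of all genes called is not given. In iNSC lines against MEF, 1 gene was higher, and the count was 11 with quantile normalization, 3 with median-ratio scaling, 0 with copies summed, and between 0 and 9 with 1 library left out. The count lower, 0, became 1 (Cox4i2) with no filter, and 0 to 1 with a library left out. Against cNSC, the count higher, 0, became 1 (Ndufc1) with quantile normalization and 0 to 10 with a library left out, and the count lower became 1 (Cox4i2) with no filter. Cox4i2 had 0.110 FPKM in both cNSC and MEF, under the floor, and was listed at 0 in all iNSC libraries. With quantile normalization the median difference from cNSC, 0.52, was 0.32, and the medians for DTA, for pBKSM and for both polycistronic libraries came nearer to 0. With median-ratio scaling these medians moved less. For DTA, 1 gene (Ndufb6) was lower with no filter, and leaving out a library gave 0 to 3 higher and 0 to 11 lower. For pBKSM against mcBKSM, the 4 higher became 9 with a filter at 5 FPKM, 2 with quantile normalization, 0 without the trend and 10 in a fit of those 3 libraries alone, and the count lower, 0, became 1 in the first and last of these. For both polycistronic libraries, leaving out 1 gave 0 to 10 higher and 0 to 1 lower. Between cNSC and MEF, the 3 lower by 2-fold became 1 with quantile normalization. The cause was not tested, except that summing copies and leaving out libraries change the values and samples themselves. Leaving out an mcBKSM clone left no spread to test pBKSM against. No paired analysis was possible because the groups share no replicate numbers that pair libraries. Pooled RNA, 1 library for each reference cell type, and FPKM without counts limit all comparisons.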
